A study of Mesocentrotus franciscanus with 18 samples.

Results

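The esophagus (ES) of large red sea urchins (Mesocentrotus franciscanus) was compared with the esophagus of small ones. The comparison holds 6 of the 18 RNA-Seq libraries of the series, chosen by their labels: the 3 libraries of Large animals (ES-L) and the 3 of Small animals (ES-S), with 1 library of each size from the sampling years 2010, 2011 and 2013. The other 12 libraries are of the muscle of Aristotle's lantern (ALM) and the radial nerve (RN). The study used body size to stand for age, and the labels name no mutation or treatment in either group. Each library was made from RNA pooled over several animals of 1 year and size, so p-values measure how pools and years vary, not how animals do. The values are estimated counts per grouping of assembled transcripts, and 30159 of the 127110 features passed a filter on low counts in the 6 libraries. Of these, 707 could be linked to an S. purpuratus (SPU) gene.

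The sea urchin esophagus carries food from the lantern to the stomach. Its lining is a ciliated and secretory epithelium with a nerve plexus beneath it and muscle around it, so that transcripts of cilia, contractile proteins, neurons and immune cells can all be expected in a bulk sample of it. In bulk RNA, fewer cells of a type and less RNA per cell cannot be told apart. Among the markers of the foregut, FoxA, a forkhead factor of the endoderm, was at 621, 525 and 546 CPM (each count as a share of the library total, scaled up to a common depth after TMM, which sets each library's depth from the bulk of its features) in ES-L 2010, 2011 and 2013. In the ES-S libraries it was at 745, 640 and 718 CPM, again in the order 2010, 2011 and 2013, which is the order of all values below. The summed level of FoxA, Pax1/9 and FoxL1, scaled over all 18 libraries, averaged 599 CPM in ES, 10.3 CPM in ALM and 30.4 CPM in RN. FoxA made up most of the sum in ES. Of 14 markers of skeleton-forming cells, 1 passed the filter.

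Total counts were 7873249, 7865098 and 8858887 in ES-L and 9055292, 9080548 and 9831553 in ES-S. The 50 most abundant groupings took 48.4% of the counts of ES-L 2010. The same share was 22.9 and 25.3% in ES-L 2011 and ES-L 2013 and lay between 26.6 and 33.9% in ES-S. TMM factors were 0.685 in ES-L 2010, 1.23 in ES-L 2011, 1.21 in ES-L 2013, and 0.951 to 1.06 in ES-S. On library totals alone, the median log2 difference of all features from the ES-S mean was −0.54 in ES-L 2010 and 0.30 in each of the other ES-L libraries. After TMM it was −0.04, 0.02 and 0.03 in ES-L 2010, 2011 and 2013.

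ES-L 2010 stood apart from the other large libraries more than any other ES library stood apart from its group. The root mean square difference of log2 CPM between a library and the mean of the other libraries of its size was 1.45 for ES-L 2010. It was 0.977 for ES-L 2011 and 0.991 for ES-L 2013, values that contain ES-L 2010 in the mean, and 0.701, 0.760 and 0.755 in ES-S. Taken directly, ES-L 2011 and ES-L 2013 were 0.890 apart, and the pairs within ES-S were 0.829 to 0.895 apart. ES-L 2010 was 1.51 from ES-L 2011 and 1.52 from ES-L 2013, but 1.27, 1.42 and 1.15 from ES-S 2010, 2011 and 2013, so that this large library was closer to each small library than to either large one. Correlations of log2 CPM across features, which are not independent replicates, ran the same way. Pearson's r of ES-L 2010 was 0.758 and 0.754 with the other ES-L libraries and 0.785 to 0.862 with ES-S, while ES-L 2011 and ES-L 2013 had an r of 0.902 with each other. The sample weights that limma voom estimated were 0.204 for ES-L 2010 and 1.07 to 2.19 for the other 5 libraries.

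In ES-L 2010, 686 features were more than 4-fold above both other ES-L libraries and 2565 more than 4-fold below both, together 10.8% of the features tested. The share was 1.17 and 1.63% for ES-L 2011 and ES-L 2013, and 0.965 to 1.04% in ES-S. The 686 features that stood above took 35.0% of the counts of ES-L 2010, against 8.79 and 9.68% in the other ES-L libraries and 13.8 to 20.2% in ES-S. Of the 2565 that stood below, 2357 were also below all 3 ES-S libraries, as were 11848 of all 30159 features tested. Among features at a mean of 1000 CPM or more (n = 108), the median log2 difference from the ES-S mean was 0.62 in ES-L 2010, but −0.71 in ES-L 2011 and −0.80 in ES-L 2013. The most abundant transcripts thus lay on opposite sides of ES-S within the large group.

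**Figure D1:**
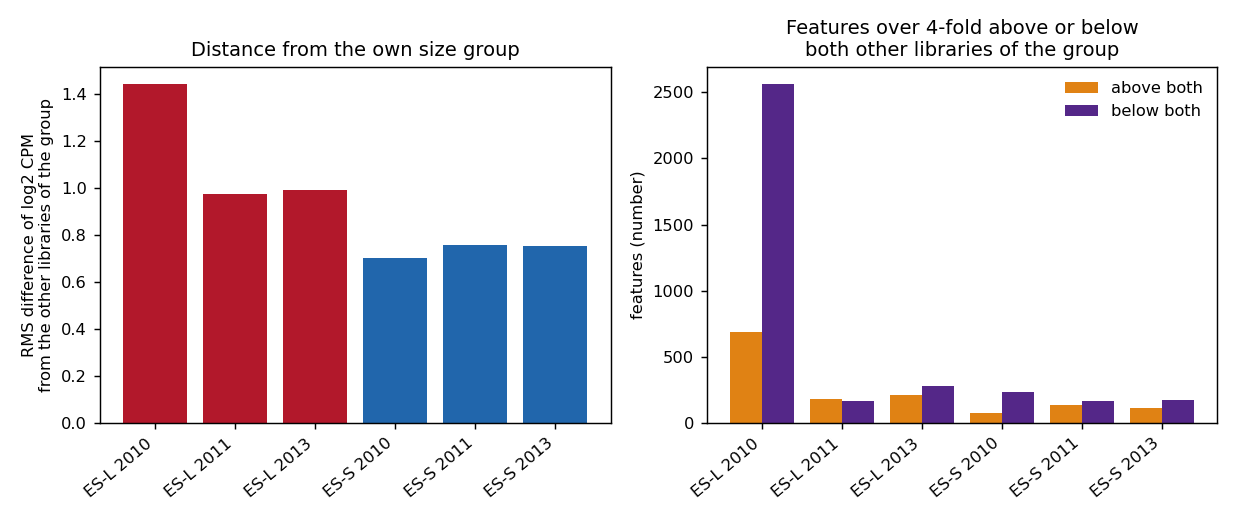
Left, root mean square difference of log2 CPM between each ES library and the mean of the other libraries of its size over 30159 features. Right, number of features more than 4-fold above or below both other libraries of the group. ES-L 2010 has the highest bar in each panel, at 1.45 on the left and at 686 and 2565 features on the right.

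**Figure D2:**
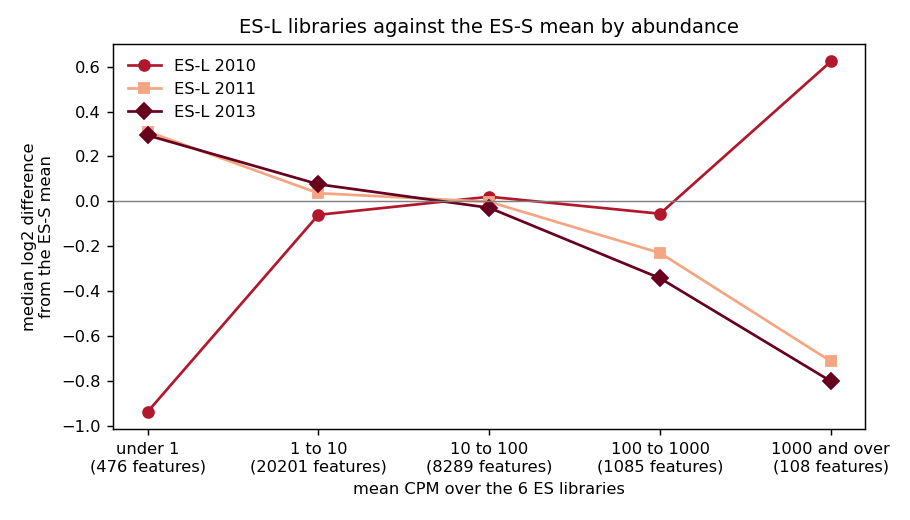
Median log2 difference of each ES-L library from the ES-S mean (vertical axis) for features grouped by their mean CPM over the 6 ES libraries (horizontal axis, number of features in brackets). In the class of 1000 CPM and over, ES-L 2010 lies at 0.62, and ES-L 2011 and ES-L 2013 lie at −0.71 and −0.80.

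The effect of size was tested with edgeR's quasi-likelihood test, where a positive log2 fold-change is higher in ES-L. A feature was called if its fold was above 2 in either direction and its p, adjusted by Benjamini-Hochberg, was under 0.05. Of the 30159 features, 1 was called (0.00332%), and 2438 had an unadjusted p under 0.05 (8.08%), 4.24% of all features with the higher and 3.84% with the lower level in ES-L. The called feature, TRINITY_DN7935_c2_g1, had no such link. It had 109, 194 and 274 counts in ES-L and 3, 2 and 2 counts in ES-S, and its log2 fold-change was 6.37 (SE 0.45, adjusted p = 0.0142). ES-L 2010 did not stand apart for this grouping, with 20.2 CPM in ES-L 2010 and 20.1 and 25.5 CPM in the other ES-L libraries. When a replicate block for year was added, the count was 0 by edgeR (1979 features had an unadjusted p under 0.05) and 321 by DESeq2.

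Leaving out ES-L 2010 moved the number of calls further than leaving out any other library. Without it, 886 of 33764 features were called (2.62%), 511 higher (1.51%) and 375 lower (1.11%) in ES-L. Without each of the other 5 libraries in turn edgeR called 0, with an unadjusted p under 0.05 for 1734 to 2585 features. DESeq2 called 372 features on all 6 libraries (1.23%), 192 higher (0.637%) and 180 lower (0.597%), and limma voom with sample weights called 332 (1.1%). Of the 511 features called higher without ES-L 2010, 414 were also in the table of 6 libraries. In ES-L 2010, 153 of these 414 lay above all ES-S libraries, 101 within their range and 160 below all of them. Of 369 called lower, 186 lay below all ES-S libraries in ES-L 2010, 60 within their range and 123 above them. Over all 30159 features tested, ES-L 2010 lay above all ES-S libraries in 10715, within their range in 7596 (25.2%) and below all of them in 11848. The 414 called higher were thus divided about as all features were. Of the 369 called lower, a larger share than of all features lay below all ES-S libraries in ES-L 2010. The ES-S libraries were part of the fit that chose both sets.

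The year 2010 was also held out with its small library, so that the 2010 pair had no part in choosing features. Fitted to 2011 and 2013 alone (2 against 2 libraries), edgeR called 0 features, with an unadjusted p under 0.05 for 5322. At an unadjusted p under 0.001 with a fold above 2, it selected 271 of 32658 features (0.83%). The log2 ratio of ES-L to ES-S in 2010 had the same sign as the fit for 150 of the 271 (55.4%), for 83 of the 152 that were higher and 67 of the 119 that were lower. In the fit the higher features had a median of 2.77 and the lower ones of −3.22 (log2 fold-change), but in the 2010 pair the median log2 ratios were 0.21 and −0.41. As a comparison, the 2010 ratio was above 0 in 14449 of all 30159 features, with a median of −0.06. A lower value in ES-L was thus the more common one in that pair. With 2011 held out, 37 features were selected (0.122%) and 30 kept their sign in the 2011 pair. With 2013 held out, 19 were selected (0.0635%) and 17 kept it. The features selected in these fits, which contain ES-L 2010, were fewer and had larger fold-changes. The median log2 fold-changes of the higher and lower ones were 6.52 and −8.71 with 2011 held out. With 2013 held out they were 8.74 and −4.56. The shares that kept their sign thus come from unlike sets of features. Over all 30159 features, the sign of the 2010 ratio was that of the mean ratio of 2011 and 2013 in 44.4%.

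Among the linked genes, several groups lay on the same side of ES-S in all 3 large libraries, ES-L 2010 included, and others did not. Lists named here as the study's are genes that it reported for a tissue. Those reported for ES were chosen on these same libraries. Their direction, unadjusted p, lack of overlap and DESeq2 calls restate that choice and are not independent evidence. Of all 81 genes of the ES list that were tested, 29 lay above and 47 below ES-S without overlap. All 34 with a positive and all 47 with a negative log2 fold-change had an unadjusted p under 0.05. Lists reported for RN or ALM were chosen on the libraries of the other tissues. As a comparison for the lists of RN or ALM, 6.58% of all features tested had all 3 ES-L values above all 3 ES-S values. In 7.54% all 3 lay below. The median log2 fold-change over all features was 0.06. Over the 626 linked genes outside the study's ES list, the median log2 difference from the ES-S mean was −0.64 in ES-L 2010, 0.25 in ES-L 2011 and 0.14 in ES-L 2013.

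**Figure D3:**
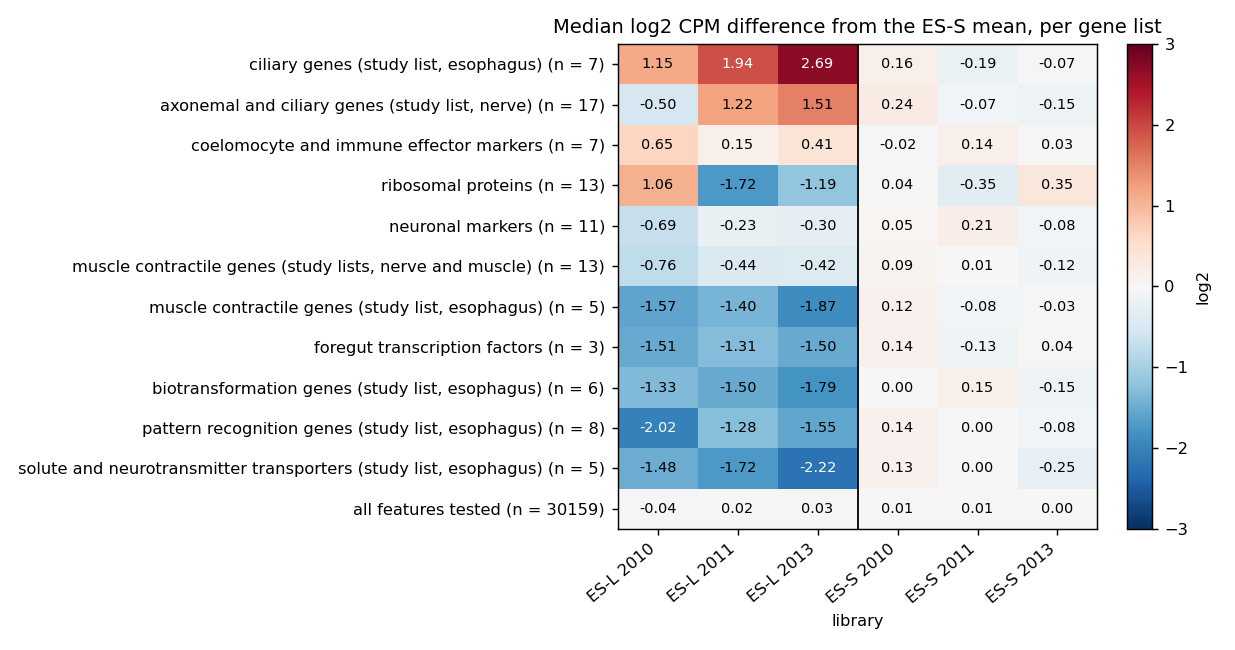
Median log2 CPM difference from the ES-S mean for each gene list (rows, with the number of genes tested) in each ES library (columns, ES-L at the left). Ribosomal proteins are at 1.06 in ES-L 2010 and at −1.72 and −1.19 in ES-L 2011 and ES-L 2013, while the 5 contractile genes of the study's ES list are at −1.57, −1.40 and −1.87.

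Contractile genes were lower in the large libraries. Of the 5 linked genes of the study's ES list, all 5 had their 3 ES-L values below their 3 ES-S values, with a median log2 fold-change of −1.50. Mrlc, the regulatory light chain of myosin, was at 147, 104 and 99.6 CPM in ES-L and at 506, 442 and 489 CPM in ES-S, a mean of 117 ± 26.2 CPM in ES-L and 479 ± 33.0 CPM in ES-S (SD, n = 3 each; log2 fold-change −2.04, SE 0.31, edgeR adjusted p = 0.175). Obscurin, a giant protein of the sarcomere, was at 8.90, 12.6 and 8.56 CPM in ES-L and at 57.2, 47.1 and 45.4 CPM in ES-S (log2 fold-change −2.31, SE 0.32, edgeR adjusted p = 0.151). Both genes had about the same level in ES-L 2010 as in the other large libraries. Ckm, the creatine kinase of muscle, was at 141, 175 and 152 CPM in ES-L against 455, 394 and 410 CPM in ES-S. Calpn, of the actin-binding calponin family, was at 368, 302 and 248 CPM in ES-L against 658, 757 and 681 CPM in ES-S, and My18A, annotated as a myosin heavy chain, at 320, 272 and 197 against 885, 845 and 496 CPM. None of the 5 was called on all 6 libraries, though the unadjusted p of each was under 0.05. All 5 were called by DESeq2, 3 by DESeq2 with the replicate block for year, and 4 by edgeR without ES-L 2010. With that block and without ES-L 2010, edgeR called 0 of the members of every list, here and below, and 0 of all features, of which 5802 were under 0.05 before adjustment.

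The contractile genes that the study listed for RN or ALM were less uniform. Of 13 tested, 11 had a negative log2 fold-change (median −0.41), 6 had groups that did not overlap, all lower in ES-L, 3 had an unadjusted p under 0.05, and 0 were called. These values depended on the scaling. The median log2 difference from the ES-S mean was −0.76, −0.44 and −0.42 in ES-L after TMM, but −1.29, −0.14 and −0.15 on library totals alone. After TMM 3, 1 and 1 of the 13 were higher in ES-L in the pairs of 2010, 2011 and 2013. On library totals 2, 3 and 5 were. Msclact, a muscle actin, was at 9004, 7948 and 9180 CPM in ES-L and at 19907, 13723 and 21875 CPM in ES-S (log2 fold-change −1.09, SE 0.43, edgeR adjusted p = 0.581). TropT, troponin T of the thin filament, was at 2.97, 5.40 and 5.12 CPM in ES-L and at 11.3, 15.2 and 10.7 CPM in ES-S (log2 fold-change −1.45, SE 0.39, edgeR adjusted p = 0.396). Tropmy1, a tropomyosin, was at 574, 510 and 463 CPM in ES-L and at 855, 804 and 734 CPM in ES-S, and ProjL, a protein of the titin family, at 28.4, 60.9 and 45.3 against 104, 88.2 and 62.1 CPM. Summed over the 13 genes, the level was 11116, 10287 and 11670 CPM in ES-L and 23293, 16644 and 24953 CPM in ES-S, without overlap, but Msclact alone made up most of the sum in every library. How far the amount of muscle in the pooled tissue takes part in the other differences was not tested.

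The ciliary genes that the study listed for ES had higher values in ES-L, and among the large libraries ES-L 2010 lay nearest to ES-S. Cilia are built on an axoneme of microtubules whose dynein arms and inner proteins are made by a common set of genes. After TMM, all 7 ciliary genes of the study's ES list had their 3 ES-L values above their 3 ES-S values, with a median log2 fold-change of 1.95. Their median log2 difference from the ES-S mean was 1.15 in ES-L 2010, 1.94 in ES-L 2011 and 2.69 in ES-L 2013, and for all 7 ES-L 2010 was the lowest large library. CFAP299, a protein of cilia and flagella, was at 8.72, 38.0 and 43.5 CPM in ES-L and at 6.03, 5.07 and 6.42 CPM in ES-S (log2 fold-change 2.37, SE 0.58, edgeR adjusted p = 0.349). Its ES-L 2010 value was thus close above the small libraries. CFAP69 was at 15.8, 16.0 and 27.7 CPM in ES-L and at 5.91, 6.73 and 5.46 CPM in ES-S, with no such gap (log2 fold-change 1.72, SE 0.37, edgeR adjusted p = 0.291). Iqcg, of the dynein regulatory complex, was at 26.3, 74.9 and 128 CPM in ES-L and at 20.5, 17.0 and 21.7 CPM in ES-S. CFAP126, which acts at the basal body, was at 12.8, 22.3 and 28.3 CPM in ES-L and at 7.85, 4.14 and 5.56 CPM in ES-S, and Spag8 at 13.4, 17.4 and 31.2 against 7.16, 6.0 and 6.10 CPM. Lrrc67 had 20, 81 and 102 counts in ES-L and 21, 5 and 9 in ES-S, and C1orf189 had 20, 67 and 129 against 19, 13 and 5 counts. On library totals alone 6 of the 7 were higher in ES-L in the 2010 pair. For Iqcg and CFAP299, ES-L 2010 was then no longer above all ES-S libraries. None was called on 6 libraries, though the unadjusted p of each was under 0.05. All 7 were called by DESeq2, but 2 with the replicate block, and 5 by edgeR without ES-L 2010.

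The axonemal and ciliary genes that the study reported for RN also split by year. Of 17 tested, 15 had a positive log2 fold-change (median 0.96), 4 had groups that did not overlap, all higher in ES-L, and 3 had an unadjusted p under 0.05. In the pairs of 2011 and 2013, 15 and 17 of the 17 were higher in ES-L, but in the 2010 pair 6 were. The median log2 difference from the ES-S mean was −0.50 in ES-L 2010, 1.22 in ES-L 2011 and 1.51 in ES-L 2013. Of the 626 linked genes outside the study's ES list, 182, 309 and 368 were higher in ES-L in the pairs of 2010, 2011 and 2013. Their median was −0.64 in ES-L 2010, 0.25 in ES-L 2011 and 0.14 in ES-L 2013. The low values in ES-L 2010 were thus not particular to the ciliary genes. Spag17, of the central pair of microtubules, was at 2.04, 8.51 and 6.61 CPM in ES-L and at 1.82, 0.931 and 1.61 CPM in ES-S. Oad_bp58, which binds the outer dynein arm, was at 13.5, 29.8 and 37.0 CPM in ES-L and at 13.4, 12.8 and 11.9 CPM in ES-S, and Cfap70 at 2.60, 1.66 and 3.72 against 1.59, 0.621 and 0.749 CPM. Called were 0 on all 6 libraries by edgeR and by DESeq2, and 6 by edgeR without ES-L 2010, all higher in ES-L.

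Genes of pathogen recognition ran in both directions. The Gnbp genes are relatives of the insect proteins that bind bacterial and fungal surfaces, and Srcr genes encode scavenger receptors rich in cysteine, a family that is very large in sea urchins. Of the 8 linked genes of the study's ES list, 6 had all ES-L values below all ES-S values and 2 had all above. Gnbp1/2/3A was at 78.5, 181 and 150 CPM in ES-L and at 543, 475 and 431 CPM in ES-S (log2 fold-change −1.82, SE 0.38, edgeR adjusted p = 0.285). Gnbp1/2/3C was at 54.7, 95.9 and 77.5 CPM in ES-L and at 288, 233 and 232 CPM in ES-S (log2 fold-change −1.72, SE 0.32, edgeR adjusted p = 0.238). Gnbp1/2/3 was at 37.6, 81.0 and 72.7 CPM in ES-L and at 280, 197 and 187 CPM in ES-S, and Gnbp1/2/3B_1 at 74.7, 127 and 114 against 295, 291 and 242 CPM. In each of these 4 genes ES-L 2010 was the lowest of the 6 libraries, farther from ES-S than the other large libraries. They may share reads, since they belong to a family of related genes, and are not independent of each other.

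Srcr53 was at 105, 81.7 and 331 CPM in ES-L and at 16.1, 19.5 and 22.3 CPM in ES-S, a mean of 172 ± 138 CPM in ES-L and 19.3 ± 3.06 CPM in ES-S (SD, n = 3 each; log2 fold-change 3.16, SE 0.57, edgeR adjusted p = 0.224). Srcr108 was at 29.9, 31.3 and 20.2 CPM in ES-L and at 3.30, 7.97 and 8.67 CPM in ES-S (log2 fold-change 2.03, SE 0.44, edgeR adjusted p = 0.302). Srcr164 lay the other way, at 18.5, 32.8 and 25.7 CPM in ES-L and 88.0, 65.3 and 70.8 CPM in ES-S, as did the C-type lectin Clect_102, with 6, 12 and 10 counts in ES-L and 31, 69 and 55 counts in ES-S. Of the 8 genes edgeR called 0 on 6 libraries, DESeq2 called 8, DESeq2 with the replicate block 5, and edgeR without ES-L 2010 called 6. Markers of coelomocytes, the immune cells of the body fluid, summed over 9 genes to 150, 109 and 125 CPM in ES-L and 91.5, 126 and 86.8 CPM in ES-S, which overlap. Of their 7 tested members 6 had a positive log2 fold-change (median 0.52), and 0 had an unadjusted p under 0.05.

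**Figure D4:**
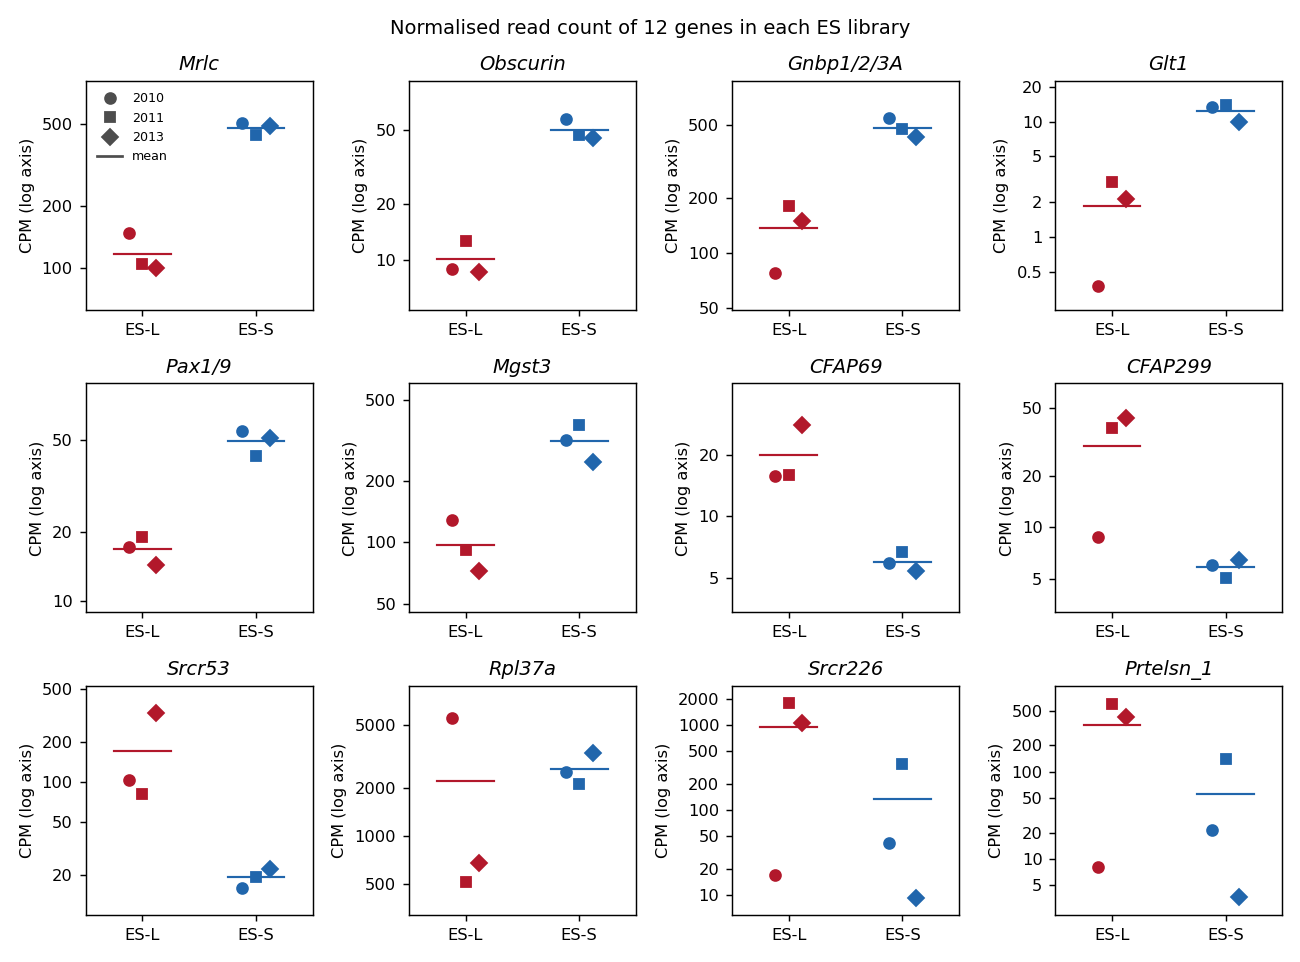
Normalised read count (CPM after TMM scaling, log axis) of 12 genes in the 6 ES libraries, ES-L in red and ES-S in blue, with a symbol for each sampling year and a line at the group mean. For Mrlc, Obscurin, Pax1/9 and Mgst3 the 3 large libraries lie together below ES-S. For Rpl37a, Srcr226 and Prtelsn_1 ES-L 2010 lies apart from ES-L 2011 and ES-L 2013.

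Transporters of solutes and neurotransmitters, again from the study's ES list, were lower in ES-L in every year for all 5 linked genes, with a median log2 fold-change of −1.78. Gat, which carries GABA across the plasma membrane, was at 20.8, 20.5 and 17.1 CPM in ES-L and at 49.1, 48.7 and 59.7 CPM in ES-S (log2 fold-change −1.43, SE 0.28, edgeR adjusted p = 0.255). Taut, a taurine transporter, was at 6.68, 5.09 and 3.54 CPM in ES-L and at 17.5, 15.6 and 18.9 CPM in ES-S (log2 fold-change −1.78, SE 0.37, edgeR adjusted p = 0.277). The glutamate transporter Glt1 had 2, 29 and 23 counts in ES-L and 119, 136 and 92 counts in ES-S, so that ES-L 2010 held the fewest. Slc28a3_2, of a family of nucleoside transporters, was at 13.0, 14.0 and 18.1 CPM in ES-L and at 40.8, 39.1 and 30.7 CPM in ES-S, and Slc16a12L_2 had 0, 8 and 3 counts in ES-L and 52, 33 and 18 counts in ES-S. AchE, one of the acetylcholinesterases that end cholinergic signaling, was at 3.71, 2.28 and 2.33 CPM in ES-L and at 7.85, 17.3 and 10.5 CPM in ES-S (log2 fold-change −2.11, SE 0.45, edgeR adjusted p = 0.291).

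Neuronal markers as a whole did not share this pattern. Summed over 17 linked markers their level was 61.6, 76.2 and 52.9 CPM in ES-L and 62.3, 71.2 and 58.6 CPM in ES-S. Of 11 that passed the filter, 4 had a positive and 7 a negative log2 fold-change (median −0.17), and 0 had an unadjusted p under 0.05. Cadps, which primes dense-core vesicles for release, was at 12.1, 4.05 and 3.44 CPM in ES-L and at 12.7, 11.4 and 12.7 CPM in ES-S. Here ES-L 2010 was at the level of the small libraries, and without it edgeR called the gene.

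Enzymes of biotransformation, which oxidize, conjugate and clear foreign and toxic compounds, were lower in ES-L for 5 of the 6 linked genes of the study's ES list and higher for Cyp4L1. Mgst3, a microsomal glutathione transferase, was at 129, 91.3 and 72.4 CPM in ES-L and at 319, 377 and 248 CPM in ES-S (log2 fold-change −1.69, SE 0.35, edgeR adjusted p = 0.267). Mgst1 of the same family was at 18.5, 9.65 and 14.1 CPM in ES-L and at 39.8, 41.8 and 38.7 CPM in ES-S. Aldh2_1, a mitochondrial aldehyde dehydrogenase, was at 554, 644 and 667 CPM in ES-L and at 1446, 1624 and 1321 CPM in ES-S (log2 fold-change −1.23, SE 0.32, edgeR adjusted p = 0.38). The sulfotransferase Sult1d1 had 1, 7 and 1 counts in ES-L and 34, 41 and 32 in ES-S. Of the cytochrome P450 enzymes, Cyp2L49 was at 9.27, 10.4 and 4.84 CPM in ES-L and at 25.7, 27.4 and 21.7 CPM in ES-S, whereas Cyp4L1 was at 5.01, 12.4 and 13.7 CPM in ES-L and at 1.82, 2.90 and 3.0 CPM in ES-S. For all 6 the groups did not overlap. DESeq2 called all 6, DESeq2 with the replicate block 2, and edgeR without ES-L 2010 called 4.

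All 3 foregut transcription factors tested had lower values in ES-L without overlap, by different amounts. Pax1/9, which marks the pharyngeal endoderm of vertebrates, was at 17.2, 19 and 14.3 CPM in ES-L and at 55.1, 42.9 and 50.9 CPM in ES-S (log2 fold-change −1.56, SE 0.29, edgeR adjusted p = 0.238). FoxL1, which is expressed around the gut in vertebrates, was at 5.75, 16.8 and 14.7 CPM in ES-L and at 46.3, 44.1 and 36.4 CPM in ES-S (log2 fold-change −1.76, SE 0.43, edgeR adjusted p = 0.353). The study listed both for ES. FoxA, which it listed for ALM and not for ES, had a log2 fold-change of −0.31 in ES (SE 0.29, edgeR adjusted p = 0.896).

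Ribosomal proteins showed how far the large libraries parted. In all 13 tested, ES-L 2010 was above both other large libraries, and all 13 were higher in ES-L in the 2010 pair and lower in ES-L in the pairs of 2011 and 2013. This held on library totals as well as after TMM. The median log2 difference from the ES-S mean was 1.06 in ES-L 2010, −1.72 in ES-L 2011 and −1.19 in ES-L 2013. Rpl37a, of the large subunit, was at 5520 CPM in ES-L 2010, 512 in ES-L 2011 and 682 in ES-L 2013, against 2522, 2119 and 3364 CPM in ES-S. Rps24, of the small subunit, was at 2198, 263 and 367 CPM in ES-L and at 1148, 936 and 1430 CPM in ES-S. Because these values lie on both sides of ES-S, the log2 fold-changes on 6 libraries were small, −0.25 (SE 0.85, edgeR adjusted p = 0.980) for Rpl37a and −0.31 (SE 0.76, edgeR adjusted p = 0.971) for Rps24, and change sign without ES-L 2011 or ES-L 2013. Without ES-L 2010 edgeR called 6 of the 13, all lower in ES-L. In total the 13 genes took 33497, 4827 and 6671 CPM in ES-L and 16483, 13121 and 20712 CPM in ES-S. Chrna9, annotated as a nicotinic acetylcholine receptor subunit, followed the same order, with 1060, 55.2 and 104 CPM in ES-L and 360, 408 and 786 CPM in ES-S.

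The genes with the lowest level in ES-L 2010 relative to the other large libraries, among linked genes at a mean of at least 10 CPM, are given as a description. Srcr226, a scavenger receptor gene, was at 17.1 CPM in ES-L 2010, 1796 in ES-L 2011 and 1043 in ES-L 2013. In ES-S it was at 41.3, 350 and 9.31 CPM, so the small libraries also differed widely by year, with 2011 the highest. Prtelsn_1 was at 8.16, 602 and 425 CPM in ES-L and at 21.6, 141 and 3.64 CPM in ES-S, and SPU_027253, which matches the human endocytic receptor LRP2, at 2.41, 110 and 147 against 3.30, 21.5 and 0.749 CPM. All 3 genes had 2011 as the highest and 2013 as the lowest small library. Hypp_475 was at 2.23, 44.7 and 71.9 CPM in ES-L and at 0.910, 5.28 and 1.28 CPM in ES-S. Tmem was at 2.04, 50.3 and 50.9 CPM in ES-L and at 2.62, 5.79 and 1.61 CPM in ES-S, and Fbs_5 at 11.3, 185 and 200 against 6.48, 13.2 and 0 CPM. Both the low value in ES-L 2010 and, through the minimum of the mean, the high values in the other large libraries follow from how these 6 genes were chosen. Without ES-L 2010, edgeR called Hypp_475 and Tmem, and not the other 4.

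Among the linked genes that edgeR called without ES-L 2010, those with the highest and lowest fold-changes were chosen by that contrast, and their values are a description of how ES-L 2010 stood beside it. SPU_026986 was at 8.72, 44.5 and 96.4 CPM in ES-L and at 4.09, 4.14 and 3.42 CPM in ES-S, with ES-L 2010 above the small libraries but below the other large ones. SPU_025652 was at 9.09, 4.36 and 2.42 CPM in ES-L and at 32.4, 42.6 and 19.5 CPM in ES-S, below them in every year. SPU_008506 had 29, 28 and 26 counts in ES-L and 1, 0 and 0 counts in ES-S, a difference in which the 3 large libraries were alike. Celsr1, an adhesion receptor gene, was at 1.11, 10.2 and 9.49 CPM in ES-L and at 0.341, 1.55 and 0.749 CPM in ES-S, where ES-L 2010 lay within the range of the small libraries.

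**Figure D5:**
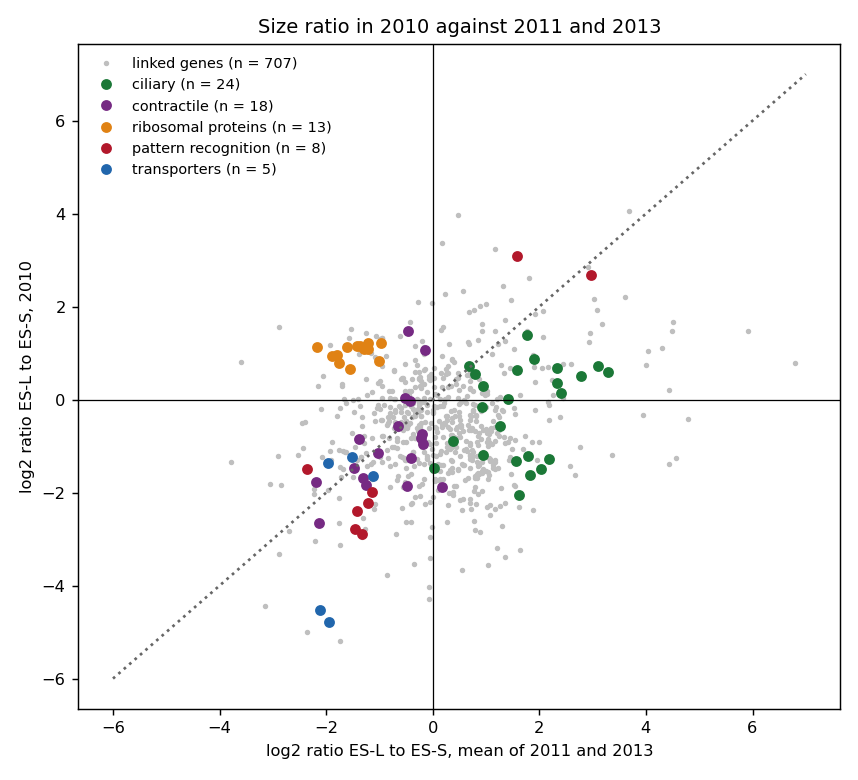
Log2 ratio of ES-L to ES-S for 707 linked genes (grey), the mean of 2011 and 2013 on the horizontal axis and 2010 on the vertical axis, with a dotted line where they are equal. The ratios had the same sign in 49.2% of the genes. Ribosomal proteins (orange) lie above 0 in 2010 and below 0 in the other years, and contractile genes (purple), pattern recognition genes (red) and transporters (blue) mostly keep their side.

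The effect of size in ES was set against that in ALM by the interaction of tissue and size over 12 libraries. Of 34168 features edgeR called 0 (0%), and 1561 (4.57%) were under 0.05 before adjustment. DESeq2 called 104 (0.304%). The 7 ciliary genes of the study's ES list had estimates of 0.93 to 1.94 for the log2 fold-change in ES minus that in ALM, all positive, with 5 of 7 at an unadjusted p under 0.05 and an adjusted p of at least 0.825. The 5 contractile genes of that list had estimates of −1.64 to −0.44, with 2 of 5 at an unadjusted p under 0.05. Both sets were chosen by their size effect in these ES libraries, so the side of their estimates is not independent evidence. Of the ciliary genes listed for RN, 16 of 17 had a positive estimate, but 1 had an unadjusted p under 0.05. Of the contractile genes listed for RN or ALM, 6 were positive and 7 negative, with 1 of 13 under 0.05. No gene of these lists passed the adjusted threshold with edgeR. Without ES-L 2010 edgeR called 29 features, 22 of them with the higher fold-change in ES.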

How the data were processed

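RNA of the esophagus was sequenced on the HiSeq-2000 after SMARTer cDNA synthesis. The authors assembled transcripts with Trinity and deposited RSEM estimated counts, whole numbers that are not normalized, for 127198 groupings in 18 libraries, with 0 columns left unused. The submitters' processing notes name FastQC 0.10.1, Trimmomatic 0.38, Bowtie2 2.3.4, RSEM and DESeq 1.20. An assembly without a genome can split a gene over groupings, and the reads of related genes can be shared among them.

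Groupings were linked to SPU genes by equality of their counts with the study's gene tables. A single grouping needed at least 20 counts, and a pair, or a grouping with at least 95% of a gene's counts, needed at least 100 counts. In all 891 genes were linked, 88 of them as pairs, among them 88 of the 123 in the study's ES table. A pair was summed to 1 feature, which left 127110 features. For genes linked by share the counts are slightly below those of the study's table.

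Groups were taken from the labels. Features were filtered with filterByExpr and scaled by TMM, and ES-L was tested against ES-S on the 6 ES libraries with edgeR 4.0.16 (quasi-likelihood test, adjusted p under 0.05 and absolute log2 fold-change above 1, prior count 2 for log2 CPM). The interaction with ALM was fitted on 12 libraries. The study used DESeq2. Here DESeq2 1.42.0 and limma 3.58.1 served as alternatives in R 4.3.3, beside other scalings and filters, a year block, all 18 libraries and fits without each library or year. Tables and plots were made with Python 3.11.15, pandas 2.3.3, numpy 2.4.6 and matplotlib 3.10.9. All tests are two-sided. Of the fits, only the comparison of the 6 ES libraries by edgeR, DESeq2 and limma voom was also run on simulated counts. No library was set apart from its group in the simulation.

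The labels give the sampling year, which pairs a large with a small library. The correlation across features of the deviations from the group means was 0.023 for 2010, 0.310 for 2011 and −0.161 for 2013. Pairs of unlike years ran from −0.341 (ES-L 2010 with ES-S 2011) to 0.322 (ES-L 2010 with ES-S 2013), so the same-year values lay within their range.

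Genes were named by a rule: called features, up to 4 members of each list by smallest unadjusted p (all members of lists of 9 or fewer), the 8 highest and 8 lowest linked genes called without ES-L 2010, and the 6 highest and 6 lowest by the ratio of ES-L 2010 to the other ES-L libraries at a mean of at least 10 CPM. Not every such gene is described, and 1 is not reported here. The comparison, the 13 gene lists and the rule were chosen with earlier results of these data known, and the study's ES lists were chosen on the same libraries.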

Additional observations from a re-analysis of the deposited data

How the results depend on the processing

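The number of features called, 1 with edgeR on 6 libraries, depended on the method and on the libraries. It was 0 without normalization factors and with the year as a replicate block, 372 with DESeq2, 321 with DESeq2 and the replicate block, 332 with limma voom and sample weights, 40 with all 18 libraries in the fit and 1767 with no filter on low counts. Leaving out 1 library gave 0 to 886, the 886 without ES-L 2010, and leaving out the libraries of 1 year gave 0 for each year. Alternatives chosen after seeing the data gave 2689 for DESeq2 without ES-L 2010, 0 for the replicate block without it (unadjusted p under 0.05 for 5802) and 392 for all 18 libraries but ES-L 2010. For the interaction with ALM, 0 with edgeR, DESeq2 gave 104, and leaving out 1 library gave 0 to 29, with 3 without ES-S 2011, 2 without ALM-L 2011 and 1 without ALM-S 2013. The distance of ES-L 2010, 1.45, was 1.08 with no filter on low counts. In that setting it was 0.803 and 0.822 for ES-L 2011 and ES-L 2013, and 0.700 to 0.719 in ES-S. With no normalization factors it was 1.67 for ES-L 2010, which was the farthest from its group in every setting. Without the 2010 libraries 0 features were selected at the adjusted threshold. At an unadjusted p under 0.001, 150 of 271 (55.4%) kept their sign in the 2010 pair. With no normalization factors 146 of 312 did so (46.8%), and with limma voom 140 of 268 (52.2%), both added after seeing the data. Of 58 named genes, 55 kept their direction in all settings run. DESeq2 called 41 of the 57 for which it gave an adjusted p, DESeq2 with the replicate block called 21 of 58, and edgeR without ES-L 2010 called 39. Many of the 58 were chosen by their size effect in these libraries, and the settings share libraries. The kept directions and these calls are thus not independent evidence. The log2 fold-changes of Rpl37a, Rps24 and Chrna9 reversed. On leaving out 1 library they ran between −2.19 and 0.21 for Rpl37a, −1.92 and 0.13 for Rps24 and −2.72 and 0.16 for Chrna9. Without the 2011 libraries Rpl37a was at 0.062 and Chrna9 at 0.0076, and without the 2013 libraries Rpl37a was at 0.40, Rps24 at 0.26 and Chrna9 at 0.56. The causes were not tested. Each group had 3 pools, 1 of the large ones apart from the rest, and SPU_008506 and Sult1d1 rest on few counts in 1 of the groups.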

Other observations

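Other functional categories of the study's RN list, tallied after their values had been seen, can be read against the linked genes outside its ES list, for which the median log2 difference from the ES-S mean was −0.64 in ES-L 2010, 0.25 in ES-L 2011 and 0.14 in ES-L 2013. Genes of mitochondria (23 tested) had medians of −1.36, −0.39 and −0.28, but on 6 libraries 10 of the 23 had a positive and 13 a negative log2 fold-change (median −0.11), and without ES-S 2011 the median was 0.20, with 13 positive and 10 negative. Defensome genes, which detect and clear toxic compounds and oxidants, had medians of −0.96, −0.35 and −0.66 (34 tested), with a negative log2 fold-change on 6 libraries in 29 of the 34. Protein trafficking genes (48 tested) had medians of −1.03 in ES-L 2010 but 0.83 in ES-L 2011 and 0.43 in ES-L 2013. Adhesion and extracellular matrix genes (39 tested) also lay on different sides, with −0.67 in ES-L 2010 and 0.34 and 0.69 in the other ES-L libraries. Genes of nerve function (74 tested) were at −0.85, 0.26 and 0.02. None of these categories was tested as a group.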
